A study of Mus musculus with 41 samples.

Results

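The genes described here were 8 members of the mouse PRAME family, Pramel1, Pramel3, Pramel4, Pramel5, Pramel6, Pramel7, Pramef8 and Pramef12, found by symbol among the 24028 gene symbols of 13 RNA-seq libraries. They were chosen by name with a measured value in view, the level of Pramel7 in wild-type cultures kept in TSa2i/L and in 2i/L, so that contrast is given below as a description only. The family carries leucine-rich repeats and has expanded into a large group of related genes in rodents, most of them expressed in the germ line or in the early embryo. PRAMEL7 is known as a protein of the inner cell mass that binds the Cullin-2 ubiquitin ligase and directs UHRF1, the cofactor of the maintenance methyltransferase DNMT1, to degradation. Pramel7 is also known as a target of LIF and STAT3 signalling, and both Pramel6 and Pramel7 have been described as factors of ground-state pluripotency.

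The libraries came from androgenetic haploid embryonic stem cells (AG-haESCs), which carry only a sperm genome, and all lines were labelled C57BL/6 and kept on feeder fibroblasts. The study's text also gives TSa2i-14 an actin-EGFP transgene, which it does not give for TSa2i-C57. The wild-type line 2i-14 was sampled in 2i/L at p18, p39 and p50, where 2i/L is a serum medium with LIF, the Mek inhibitor PD0325901 and the Gsk3 inhibitor CHIR99021. Wild-type TSa2i-14 (p22, p47 and p54) and TSa2i-C57 (p9 and p58) were derived with the Src inhibitor CGP77675 in place of PD0325901. They were then kept in SF/a2i/L, a serum-free medium on another base, with CGP77675, LIF and CHIR99021. This schedule is named TSa2i/L. In 2i-O48 the differentially methylated regions H19-DMR and IG-DMR are deleted, and 2i-O48-TKO lacks the gene H19 as well; each was sampled once in 2i/L, and together they are called the DMR-deleted lines. The labels do not say whether 2i-O48-TKO was made from 2i-O48, and give no passage number for these lines or for the switched cultures, so the 2 lines may not be independent. The wild-type line and both DMR-deleted lines were also sampled once each after 5 passages in SF/a2i/L, giving 3 switched cultures. A change of medium therefore included a change of inhibitor, the removal of serum and, by the study's text, another basal medium and other supplements. These parts cannot be told apart. Among the long-term wild-type cultures, medium and cell line cannot be told apart either, because 2i-14 supplied every wild-type 2i/L library. Libraries of one line were passages of one culture history and not separate lines, so p-values measured only the spread between these libraries.

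Pramel6 and Pramel7 are neighbours on chromosome 2 of mm9, transcribed away from each other, at chr2:87346722-87351029 (plus strand) and chr2:87329244-87337250 (minus strand). Pramel1 (chr4:142984331-142990063), Pramef8 (chr4:143002329-143010994), Pramel4 (chr4:143649029-143659230), Pramel5 (chr4:143860536-143870391) and Pramef12 (chr4:143981577-143998367) lie in the family's cluster on chromosome 4, and Pramel3 lies on the X chromosome (chrX:131836846-131847191). The files held 28 more symbols of the family, of which 11 reached an FPKM (fragments scaled by transcript length and library depth) of 1 in at least 1 library. Of these, Gm13128 (now Pramel30, chr4:143920152-143923368) and Pramef17 (now Pramel14, chr4:143581022-143584272) were followed beside the members, a choice made after their values were seen.

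Promoter windows from RefSeq (GRCm38.p6 annotation, 250 bases before to 50 bases after the start) were available for 7 of the 8 members. They are shown for Pramel6, Pramel7 and the 2 relatives followed here, 5′ to 3′ on the coding strand. Each was found once by exact match in the chromosomes searched of mm9. The windows of the other family genes were not aligned with these. Capitals mark runs of at least 12 bases that the windows of Pramel7, Gm13128 and Pramef17 had in common.
Pramel7: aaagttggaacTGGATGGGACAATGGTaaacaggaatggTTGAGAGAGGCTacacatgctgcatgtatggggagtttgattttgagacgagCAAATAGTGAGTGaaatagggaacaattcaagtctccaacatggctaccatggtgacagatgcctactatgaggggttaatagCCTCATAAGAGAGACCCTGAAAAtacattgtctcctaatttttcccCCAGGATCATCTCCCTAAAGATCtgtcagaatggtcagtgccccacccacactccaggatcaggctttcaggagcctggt
Gm13128: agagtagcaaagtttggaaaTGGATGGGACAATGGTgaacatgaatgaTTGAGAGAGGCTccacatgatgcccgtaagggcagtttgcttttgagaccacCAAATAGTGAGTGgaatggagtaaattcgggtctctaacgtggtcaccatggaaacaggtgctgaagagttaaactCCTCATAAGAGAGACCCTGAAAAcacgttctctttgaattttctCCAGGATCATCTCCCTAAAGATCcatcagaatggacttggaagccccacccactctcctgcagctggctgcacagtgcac
Pramef17: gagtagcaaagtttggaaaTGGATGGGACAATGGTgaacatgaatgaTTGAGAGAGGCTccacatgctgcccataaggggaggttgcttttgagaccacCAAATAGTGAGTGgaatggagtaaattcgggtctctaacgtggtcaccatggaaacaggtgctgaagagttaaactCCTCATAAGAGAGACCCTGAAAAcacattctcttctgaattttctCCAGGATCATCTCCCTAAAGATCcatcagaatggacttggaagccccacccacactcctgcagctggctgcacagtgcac
Pramel6: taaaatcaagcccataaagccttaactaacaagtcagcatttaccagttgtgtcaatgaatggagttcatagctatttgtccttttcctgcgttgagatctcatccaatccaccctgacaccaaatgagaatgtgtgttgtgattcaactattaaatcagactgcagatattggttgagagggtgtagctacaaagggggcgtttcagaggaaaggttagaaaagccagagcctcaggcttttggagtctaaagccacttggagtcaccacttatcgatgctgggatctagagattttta

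In mm9 the windows lie at chr2:87332526-87332825 (Pramel7, minus strand), chr4:143919902-143920201 (Gm13128, plus strand), chr4:143584223-143584522 (Pramef17, minus strand) and chr2:87346472-87346771 (Pramel6, plus strand). The RefSeq start of Pramel7 falls inside the gene as GENCODE draws it in mm9. Local alignment gave 231 identical of 290 aligned positions between Pramel7 and Pramef17 and 228 of 290 between Pramel7 and Gm13128. The windows of Gm13128 and Pramef17 were near copies of each other, with 293 of 300 positions identical. Their transcripts were not aligned, so whether fragments from one were counted for the other was not tested. The runs CCTCATAAGAGAGACCCTGAAAA and CCAGGATCATCTCCCTAAAGATC, the longest of the shared runs at 23 bases, were each found on either strand in 3 of 32851 RefSeq promoter windows (0.00913%), those of these same 3 genes. The Pramel6 window held none of the marked runs. A STAT-type palindrome, TTCNNNGAA on both strands, was in none of the 4 windows and in 8.3% of all windows. The Esrrb motif TCAAGGTCA (0.423% of windows), the TCF motif CTTTGAT (3.73%) and TATAAA (13.6%) were also not found in the 4 windows. Few CG dinucleotides, the sites of DNA methylation, were present, with 1 in the Pramel7 window, 4 in Gm13128, 2 in Pramef17 and 3 in Pramel6.

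The low FPKM values implied depths of 12700000 to 19700000 fragments per library, at which 3 fragments correspond to 0.153 to 0.236 FPKM on a transcript of 1 kb. In each library all 8 pluripotency markers, including Pou5f1 and Nanog, were at an FPKM of 1 or more, and none of 5 primitive endoderm markers was. The 15 fibroblast markers summed to an FPKM of 592 in 2i-14 p39, of 189 in TSa2i-14 p54 and of 85.9 in TSa2i-C57 p58, against 10.3 to 29.3 in the other 10 libraries. S100a4 alone made up 524 of the sum in 2i-14 p39, and the other 14 markers summed to 67.8, 151 and 60.2 in these 3 libraries and to at most 24.9 elsewhere. Summed FPKM of 6 two-cell-like markers was 136 in 2i-14 p18, 114 in 2i-14 p50 and 31.2 in 2i-O48-TKO, and at most 1.88 elsewhere.

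Pramel6 was the most abundant member in 2i/L on the FPKM scale, which is per length. Its FPKM in 2i-14 was 53.3 at p18, 29.6 at p39 and 12.2 at p50, and the DMR-deleted lines had 38.3 (2i-O48) and 30.9 (2i-O48-TKO). In TSa2i/L, TSa2i-14 had 5.85 (p22), 2.92 (p47) and 6.05 (p54), and TSa2i-C57 had 2.90 (p9) and 1.56 (p58). The switched cultures had 0.110 (2i-14), 0.308 (2i-O48) and 1.35 (2i-O48-TKO). The levels thus fell into an order of 2i/L, TSa2i/L and switched cultures with no overlap between neighbours. The highest switched library (1.35) was close to the lowest TSa2i/L library (1.56). The share of all genes with this order was not computed. The wild-type libraries in 2i/L and TSa2i/L also belong to the contrast that chose the genes, so nothing is read from the order.

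Pramel7 had the same order. Its FPKM in 2i-14 was 34.2 at p18, 14 at p39 and 12.1 at p50, and the DMR-deleted lines had 20.03 (2i-O48) and 10.3 (2i-O48-TKO). In TSa2i/L, TSa2i-14 had 3.36 (p22), 1.77 (p47) and 4.61 (p54), and TSa2i-C57 had 1.25 (p9) and 0.454 (p58). It was listed at 0 in switched 2i-14, at 0.307 in switched 2i-O48 and at 0.0337 in switched 2i-O48-TKO. The first and the last of these were under the level of 3 fragments in those libraries (0.0828 and 0.0963 FPKM). As with Pramel6, every 2i/L library was above every TSa2i/L library and every switched library was below them. The nearest pair was 0.307 and 0.454. The limits given for the order of Pramel6 hold here too. In such bulk libraries, fewer cells that express a gene and less of its RNA per cell cannot be told apart.

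**Figure D1:**
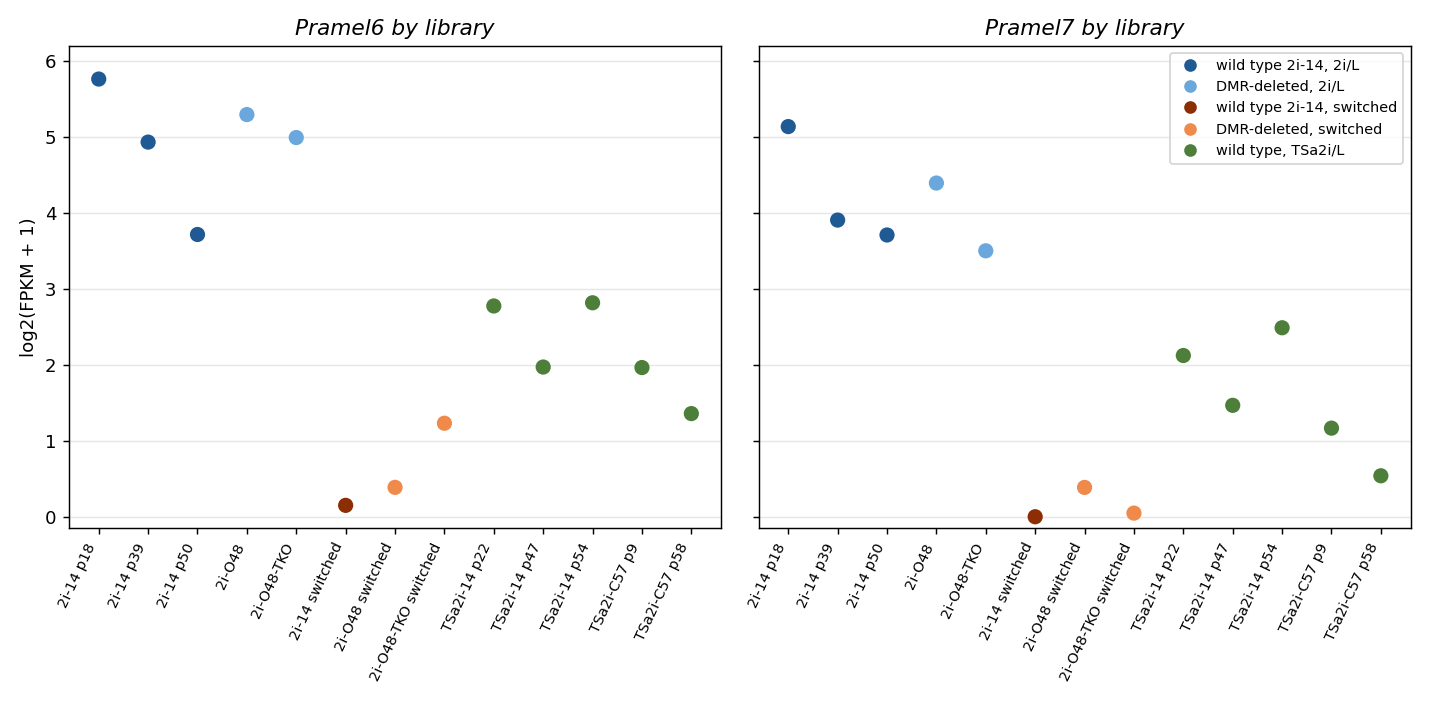
Level of Pramel6 (left) and Pramel7 (right) in each of the 13 libraries, as log2(FPKM + 1), 1 point per library, coloured by genotype and medium. The 5 libraries in 2i/L sit above the 5 in TSa2i/L, and the 3 switched cultures sit lowest for both genes. The share of all genes with this order was not computed.

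The wild-type contrast of TSa2i/L with 2i/L brought these genes into view, and its values are given as a description with no test. Pramel6 averaged 31.7 ± 20.7 FPKM (SD, n = 3) in 2i-14 and 3.86 ± 1.99 (SD, n = 5) in TSa2i/L, a difference of -2.63 in mean log2(FPKM + 1). For Pramel7 the means were 20.1 ± 12.3 (SD, n = 3) and 2.29 ± 1.68 (SD, n = 5), a difference of -2.69. Gm13128 had 3.97 ± 0.453 (SD, n = 3) and 1.92 ± 0.578 (SD, n = 5) FPKM, a difference of -0.79. Over all genes, 4.72% of 10387 were lower in TSa2i/L with no overlap between the groups. Pramef8 averaged 6.11 ± 1.34 (SD, n = 3) FPKM in 2i-14 and 6.99 ± 2.15 (SD, n = 5) in TSa2i/L, and Pramef12 averaged 1.98 ± 0.812 (SD, n = 3) and 2.36 ± 0.294 (SD, n = 5), with overlapping libraries for both.

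The question of what the switch from 2i/L to SF/a2i/L did within a line was tested in the DMR-deleted lines, whose 4 libraries were not part of the contrast that chose the genes. Both chromosome 2 genes fell, to at most 1.35 FPKM within 5 passages. Pramel6 changed by a log2 of -4.34 (SE 0.59), with an adjusted p of 0.00149 by limma over 11139 genes. Its FPKM was 124-fold lower after the switch in 2i-O48 and 22.9-fold lower in 2i-O48-TKO. Pramel7 changed by -3.73 (SE 0.59, limma adjusted p = 0.00372), from 20.03 to 0.307 FPKM in 2i-O48, which is 65.3-fold, and by at least 107-fold in 2i-O48-TKO when the switched value is set to the 3-fragment level. Ordered by log2 change, Pramel6 was number 4 and Pramel7 number 10 from the bottom of the 11139 genes.

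Pramel3, an X-linked member known mainly from the testis, was a low transcript that was highest in the DMR-deleted lines in 2i/L. It had 2.08 FPKM (2i-O48) and 1.33 (2i-O48-TKO), against 0.195, 0.234 and 0.416 in 2i-14 at p18, p39 and p50. Its switched cultures had 0.0127 (2i-O48) and 0.159 (2i-O48-TKO), a change of -1.30 (SE 0.21, limma adjusted p = 0.00439). It entered the test only because the 2 libraries of the high group reached an FPKM of 1, so its p-values carry no support and are given as a description. With the cell line as a replicate block the value was under 0.05 over the 2 DMR-deleted pairs (limma adjusted p = 0.00368) and over all 13 libraries (limma adjusted p = 0.0129). Over 3 pairs, which adds the 2i-14 pair and leaves out the other libraries, the change was -1.03 and did not pass (limma adjusted p = 0.0674). Without switched 2i-O48 it did not pass either (limma adjusted p = 0.055). Without 2i-O48 or without 2i-O48-TKO in 2i/L it was not tested, because it then no longer met the filter of an FPKM of at least 1 in 2 libraries. It was at most 0.118 FPKM in TSa2i/L and 0.0174 in switched 2i-14, so every 2i/L library lay above every library of the other media.

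Pramef8 and Pramef12 stayed above an FPKM of 1 in every library, switched cultures included. Pramef8 went from 5.43 to 1.97 FPKM in 2i-O48 and from 5.94 to 2.78 in 2i-O48-TKO, a difference of -0.997 (SE 0.31) that did not pass (limma adjusted p = 0.0774). For Pramef12, a gene known for its part in spermatogenesis, 2i-O48 had 2.21 before and 1.51 after the switch and 2i-O48-TKO had 2.72 and 1.93, a difference of -0.35 (SE 0.25, limma adjusted p = 0.441). Both were lower in each switched library than in both 2i/L libraries, as were Pramel6, Pramel7 and Pramel3, but with 2 libraries against 2 this held for 37.0% of 9959 genes. Pramel1, Pramel4 and Pramel5 were near the detection limit, with at most 0.129, 0.0397 and 0.378 FPKM in any library, and were not tested.

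In all, Pramel6 and Pramel7 fell, Pramel3 was called with the limits given above, Pramef8 and Pramef12 did not pass, and 3 of the 8 members had too little signal to test. The background was 351 genes lower (3.15%) and 148 higher (1.33%) of 11139. Leaving out 1 of the 4 DMR-deleted libraries gave 83 to 279 lower and 36 to 142 higher genes, and the lower and higher counts were 113 and 42 without 2i-O48, 83 and 36 without switched 2i-O48, and 120 and 37 without switched 2i-O48-TKO. The median change over all genes tested was -0.14. Centring each library on its median turned the numbers of lower and higher genes into 209 and 251, and quantile normalization gave 249 and 203, while Pramel6 changed by -4.11 and Pramel7 by -3.51 after median centring and both still passed. With the cell line as a replicate block over the 2 DMR-deleted pairs alone, 1031 genes passed.

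**Figure D2:**
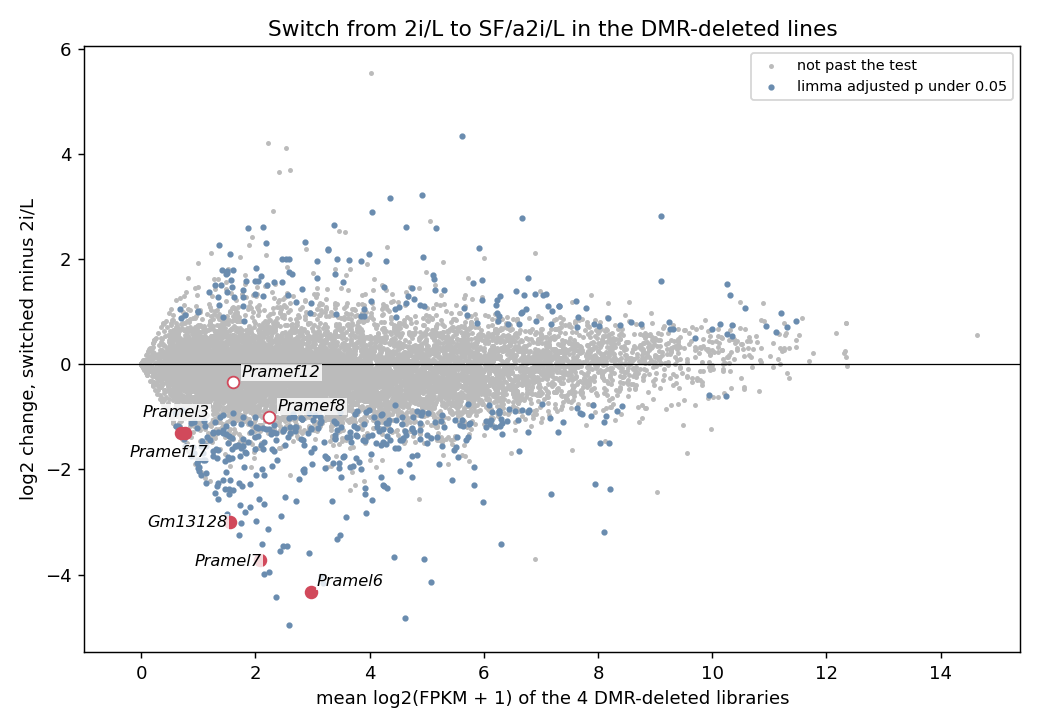
Log2 change from 2i/L to the switched culture in the DMR-deleted lines (y axis) against mean log2(FPKM + 1) of their 4 libraries (x axis) for 11139 genes, 1 point per gene; blue points pass limma at an adjusted p under 0.05, and red circles are family genes, open where they did not pass. Pramel6 (-4.34) and Pramel7 (-3.73) lie at the lower edge of the cloud, and Pramef8 (-0.997) and Pramef12 (-0.35) lie within it.

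Wild-type 2i-14 gave 1 switched library, set beside its 3 libraries in 2i/L with no test. Pramel6, at 0.110 FPKM, was 111-fold lower than at p50, 270-fold lower than at p39 and 487-fold lower than at p18, on about 3.8 fragments. Pramel7, at 0, was at least 146-fold lower than at p50 and at least 413-fold lower than at p18 when set to the 3-fragment level. Pramef8 had 2.89 FPKM, between 1.72-fold and 2.63-fold lower, and Pramef12 had 1.01, between 1.40-fold and 2.88-fold lower. Pramel3, at 0.0174 FPKM and under the level of 3 fragments, was lower too, against 0.195 to 0.416 in 2i/L. The share of all genes that were lower in this 1 library was not computed. The 3 libraries in 2i/L were part of the contrast that chose the members, so nothing is read from these values.

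Gm13128 and Pramef17, the relatives on chromosome 4 chosen after their values were seen, were highest in 2i/L. Gm13128 had 4.30, 4.16 and 3.45 FPKM in 2i-14 and 7.25 and 7.32 in the DMR-deleted lines. In TSa2i/L it ranged from 1.27 to 2.81, and in the switched cultures it was 0 (2i-14), 0.0331 (2i-O48) and 0.0363 (2i-O48-TKO). Its change in the DMR-deleted lines was -3.00 (SE 0.25, limma adjusted p = 4.77e-05), at least 71.1-fold in either line. Pramef17 was lower throughout, with 0.885, 0.680 and 0.868 FPKM in 2i-14, 1.60 and 1.51 in the DMR-deleted lines, 0.088 to 0.600 in TSa2i/L and at most 0.0662 in the switched cultures. Its order between TSa2i/L and the switched cultures was not resolved, since TSa2i-C57 p9 and all 3 switched cultures were under the level of 3 fragments. In the DMR-deleted lines its change was -1.31 (SE 0.23, limma adjusted p = 0.00714), and it did not pass without switched 2i-O48-TKO (0.0592) or without switched 2i-O48 (0.052). Like Pramel3, it met the filter only through the 2 libraries in which it was high and was not tested without either of them. Because these genes were picked for their values and their promoter windows are near copies, they do not count as separate evidence.

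**Figure D3:**
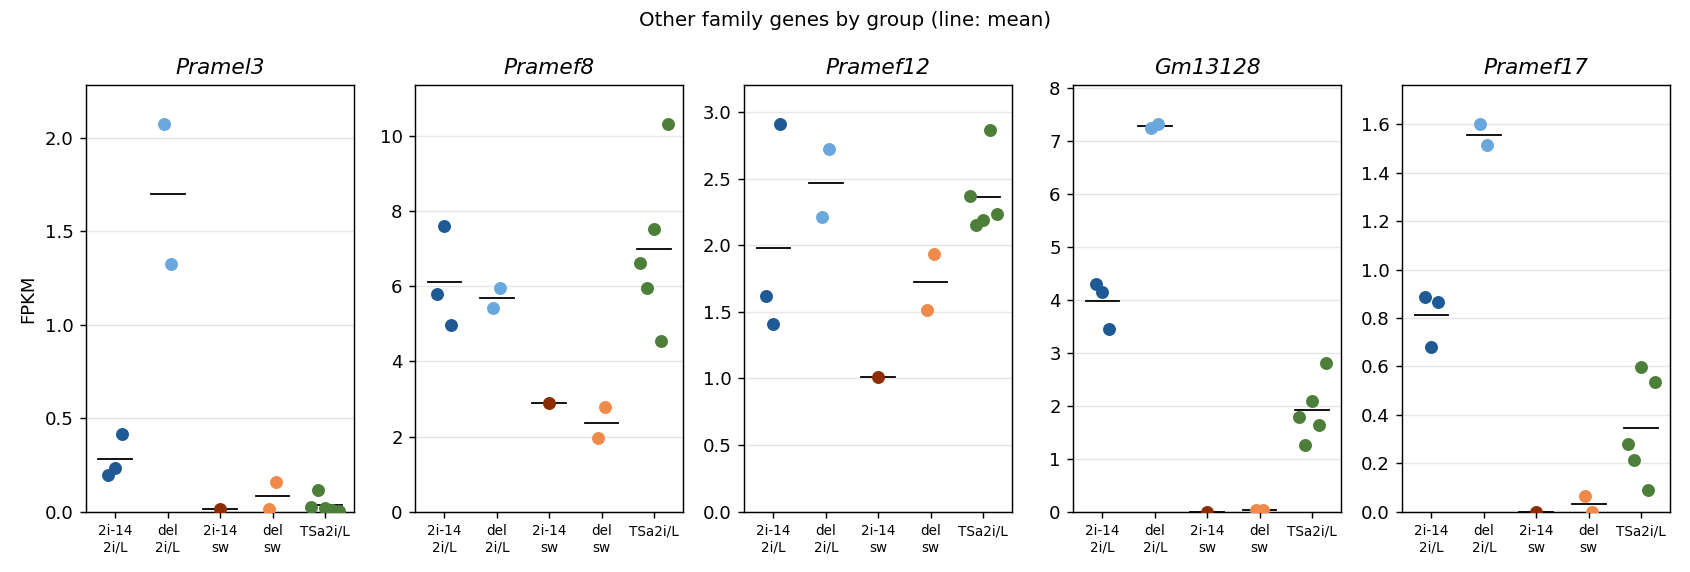
FPKM of Pramel3, Pramef8, Pramef12, Gm13128 and Pramef17, 1 point per library with the group mean as a line, in 2i-14 in 2i/L (n = 3), DMR-deleted lines in 2i/L (n = 2), switched 2i-14 (n = 1), switched DMR-deleted lines (n = 2) and TSa2i/L (n = 5); each panel has its own scale from 0. Gm13128 is at most 0.0363 in the switched cultures and 1.27 to 2.81 in TSa2i/L, and Pramef8 is at most 2.89 in the switched cultures and at least 4.55 in all other libraries.

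Over the whole set, Pramel6 and Pramel7 were higher in each of the 5 libraries in 2i/L than in the 8 other libraries, as were 1.89% of 10164 genes. Of the 13 libraries, 8 are those of the contrast that chose the members, so nothing is read from this share. Gm13128 had the same placing. Pramel3 (0.195 against 0.159 FPKM at the nearest libraries) and Pramef17 (0.68 against 0.60) did too, but did not pass the expression filter of this comparison. Switched cultures, after 5 passages, lay below all long-term TSa2i/L cultures for Pramel6, Pramel7, Pramef8 (at most 2.89 against at least 4.55 FPKM) and Pramef12 (at most 1.93 against at least 2.15), where 17.2% of 10285 genes did. In 2i/L, the DMR-deleted lines lay above 2i-14 for Pramel3, Gm13128 and Pramef17, where 11.9% of 10164 genes did, and overlapped with it for Pramel6, Pramel7, Pramef8 and Pramef12. The filter was applied to each comparison's own libraries, so these 10164 genes are a different set from the 10164 above. Pramel3 and Pramef17 entered that comparison only through the DMR-deleted libraries, so their placing carries no weight. Deletion and cell line cannot be told apart in it.

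Passage number was compared within TSa2i/L, with 3 late libraries (over p30) against 2 early ones. The late libraries TSa2i-14 p54 and TSa2i-C57 p58 had fibroblast sums of 189 and 85.9 FPKM, against 17.8 to 26.2 in the other TSa2i/L libraries. Passage and fibroblast RNA are therefore partly mixed in this contrast. Of 10502 genes, limma called 0 (0.0%), with 928 at an unadjusted p under 0.05 and a smallest adjusted p of 0.443. On simulated data this test recovered 31% of changes of log2 1 and 70% of changes of log2 2, so real changes can be missed. Late minus early was -0.32 (SE 0.44) for Pramel6, -0.15 (SE 0.54) for Pramel7, 0.43 (SE 0.28) for Pramef8 and -0.18 (SE 0.20) for Pramef12, all within the spread between libraries. The direction for Pramel6 and Pramel7 turned to 0.08 and 0.33 without TSa2i-14 p22, and to 0.02 and 0.33 without TSa2i-C57 p58.

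The other 9 relatives that reached an FPKM of 1 were high in few libraries. Summed over the 9, FPKM was 121 in 2i-14 p18, 62.1 in 2i-14 p50 and 24.8 in 2i-O48-TKO, and at most 3.12 in the other 10 libraries. A430089I19Rik (now Pramel39) led them with 79.6 FPKM at p18 and 44.3 at p50, against 0.0106 at p39. These were the 3 libraries with the highest two-cell-like sums, with Zscan4c, a gene of the two-cell embryo, at 32.4, 30.1 and 13.2 FPKM in 2i-14 p18, 2i-14 p50 and 2i-O48-TKO and at 0.278 in 2i-14 p39. Of the 6 markers, 6, 5 and 2 reached an FPKM of 1 in those 3 libraries; in 2i-O48-TKO these were Zscan4c and Zscan4f, and Tcstv1 and Tcstv3 were at 0. Gm13078 (9.84, 4.38 and 7.92 in those 3 libraries), Pramef25 (7.76, 4.89 and 5.80) and Gm13119 (5.97, 1.46 and 1.63) were at 0.0 to 0.113 in 2i-14 p39. Gm7978 (8.81 and 4.82 at p18 and p50), Gm12794 (2.07 and 2.21), Pramef6 (4.13 at p18) and Gm13083 (2.15 at p18 and 1.68 in 2i-O48-TKO) were seen in fewer of them. B020004J07Rik departed from this, with 1.90 FPKM in 2i-O48, 1.02 in 2i-O48-TKO and 0.276 in 2i-14 p18. Many of these genes belong to sets of similar copies, so the split between them is uncertain. The remaining 17 relatives never reached 1 FPKM.

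**Figure D4:**
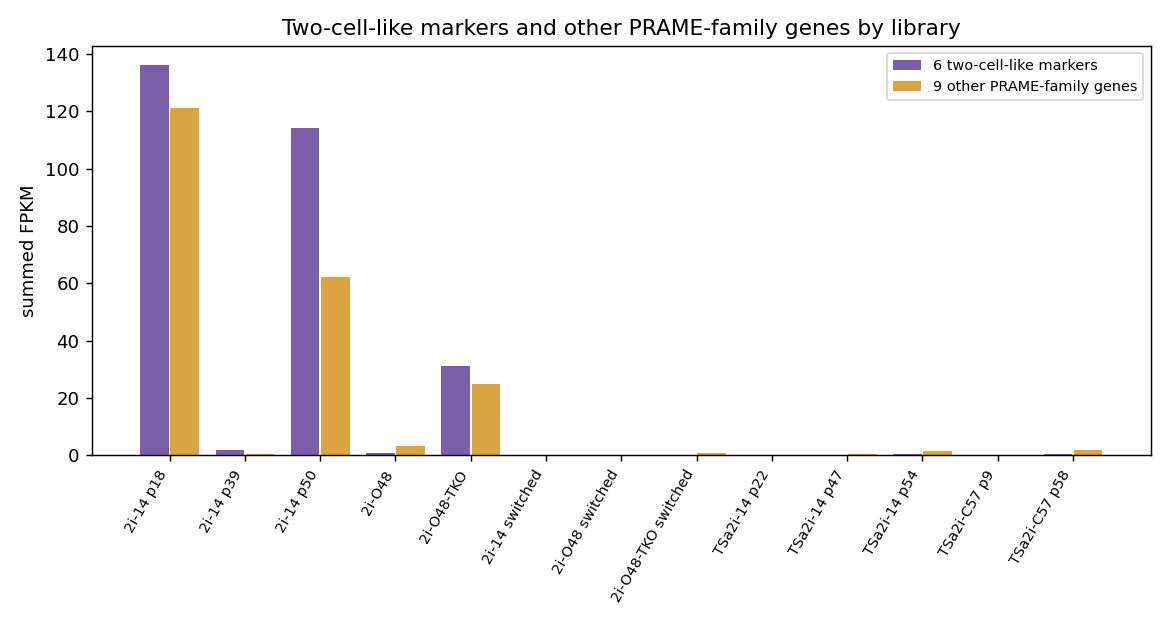
Summed FPKM of 6 two-cell-like markers (purple bars) and of 9 PRAME-family relatives other than Gm13128 and Pramef17 (yellow bars) in each of the 13 libraries. Both sums are high in 2i-14 p18 (136 and 121), 2i-14 p50 (114 and 62.1) and 2i-O48-TKO (31.2 and 24.8), and low elsewhere.

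The members' values were set beside these markers, whose part in the members' differences was not tested. In 2i-14 p39 and 2i-O48, where the two-cell-like sum was 1.88 and 0.765 FPKM, Pramel6 was 29.6 and 38.3 and Pramel7 was 14 and 20.03. With 2i-14 p18, 2i-14 p50 and 2i-O48-TKO left out, an alternative chosen after the data were seen, the change on the switch was -4.49 for Pramel6 and -4.18 for Pramel7. Only 2i-O48 then remains in 2i/L among the DMR-deleted lines, so these values are a description.

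Among the partners and regulators of the pathway, no listed gene passed the test on the switch in the DMR-deleted lines. For DNA methylation writers, cofactors and erasers, 9 of 10 were tested and 0 passed. Over all genes 4.48% passed, so lists of this size hold few calls at the background share, and a value that does not pass is not shown to be unchanged. The values were -0.05 (SE 0.28) for Dnmt1, the maintenance methyltransferase, and -0.23 (SE 0.32) for Uhrf1. Tet1, which oxidises 5-methylcytosine, differed by 0.62 (SE 0.28, limma adjusted p = 0.212). The largest difference was that of Dnmt3l, at -0.78 (SE 0.56, limma adjusted p = 0.434). Dnmt3a and Dnmt3b differed by -0.26 and -0.28. The study's text reports more DNMT1, DNMT3A and DNMT3B protein after a switch of 2i/L cultures, which RNA does not measure. Uhrf1 transcript was 24.4 and 28.1 FPKM in the DMR-deleted lines in 2i/L and 23.1 and 21.4 after the switch, while PRAMEL7 is known to act on UHRF1 protein, which RNA does not measure. All 6 genes of the Cullin-2 ligase were tested and none passed, with Cul2 itself, the scaffold, at 29.4 to 53.1 FPKM across the 13 libraries. Of 14 genes of LIF and STAT3 signalling, 12 were tested and none passed, and Stat3 differed by 0.16 (SE 0.34). None of the 8 pluripotency markers passed either. Nanog differed by -1.16 (SE 0.37, limma adjusted p = 0.0865) and Pou5f1 by -0.99 (SE 0.39, limma adjusted p = 0.151). Tdgf1 (-0.60), Klf2 (-0.49) and Sox2 (-0.14) were lower too, while Esrrb (0.42), Zfp42 (0.08) and Dppa5a (0.56) differed the other way. The median over the 8 markers was -0.316, against -0.136 over all genes tested. The part of these markers in the fall of the members was not tested.

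Some genes outside the family followed Pramel6 and Pramel7 closely across the 13 libraries. The Spearman rho between Pramel6 and Pramel7 was 0.98, and it was 0.92 and 0.87 between each of them and Gm13128, while Pramef8 had 0.41 with both. Among 10731 genes, those most like Pramel6 outside the family were Cd3g (0.97), known as a chain of the T-cell receptor complex, Mfn1 (0.96), a protein of mitochondrial fusion, Ckb (0.95), the brain-type creatine kinase, Rhox1 (0.95), an X-linked homeobox gene, and Mgl2 (0.94), a lectin. Those most like Pramel7 were Cd3g (0.97), Klhl22 (0.96), Mfn1, Plagl1 and Stk33 (each 0.95). Cd3g had 16.7 to 52.3 FPKM in 2i/L, 3.52 to 18.4 in TSa2i/L and 0.249 to 1.50 in the switched cultures. Stk33, a kinase, had 7.88 to 9.68 FPKM in 2i/L and at most 1.54 elsewhere. The libraries share lines and media, so these coefficients describe the likeness over 13 libraries and carry no test.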

How the data were processed

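RNA-seq values of 13 of 41 samples were used; methylation and chromatin samples were not analysed here. The authors amplified full-length cDNA from small numbers of haploid cells, and mapped reads to mm9 with TopHat2 (2.0.11 in the processing notes; the study's text gives another version) and computed the deposited FPKM values with Cufflinks 2.2.1. The annotation is not given in the sources used here. Rows sharing a symbol were summed (268 symbols, none of them a member). Tests used limma 3.58.1 in R 4.3.3 on log2(FPKM + 1), with an intensity trend and Benjamini-Hochberg adjustment at 0.05, so log2 changes are on that scale and understate changes of low genes; folds given for single libraries are ratios of FPKM, or bounds at the 3-fragment level. The switch was fitted on all 13 libraries in 5 groups, for genes that reached an FPKM of 1 in 2 libraries or more. The passage contrast used 5 libraries. Where 1 DMR-deleted library was left out, its group held 1 library and the other groups supplied the spread. Depth was inferred from the step of low FPKM values on 3737 genes of known length; 3-fragment levels cover counting error only. Positions come from GENCODE vM1 (mm9), and promoter windows were aligned with Biopython 1.88. Figures were drawn with matplotlib 3.10.9.

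Groups and line names came from the sample labels. The cell line named in the labels pairs a 2i/L library with its switched library; differences between 2i-O48 and 2i-O48-TKO correlated across genes with r = 0.029 before and after the switch. Named genes were the 8 members, relatives reaching an FPKM of 1, listed regulators, and the 5 genes outside the family with the highest Spearman rho to Pramel6 and to Pramel7. Members and lists were chosen with earlier results of these data known. Alternatives covered the pseudocount, filter, scaling, trend, repeated symbols, block and libraries left out. Scripts were tested on simulated data.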

Additional observations from a re-analysis of the deposited data

Results flagged for a closer look

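Pramel3 in TSa2i-14 p47, at 0.118 FPKM, stood apart from the other 4 TSa2i/L libraries, which had 0.00541 to 0.028 FPKM. The contrast lies at the detection limit, with about 7.01 fragments implied at p47 and 0.297 to 1.49 in the other 4 libraries, all under the 3-fragment level. It was the only such value among 10 family genes examined in that group of 5 libraries, and chance gives about 1 in 20 for each gene, so 1 such value among 10 genes does not stand out.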

How the results depend on the processing

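On the switch in the DMR-deleted lines, Pramel6 and Pramel7 kept their direction in all 17 alternatives in which they were fitted. Both passed limma's test in each alternative that kept 2 libraries in both DMR-deleted groups. There the log2 changes were -5.49 to -4.08 for Pramel6 and -5.96 to -3.51 for Pramel7, with limma adjusted p up to 0.0244 and 0.0443. Leaving out 1 library gave -4.76 to -3.91 for Pramel6 and -4.18 to -3.28 for Pramel7. Those fits, and the alternative chosen after the data were seen, left 1 library in a DMR-deleted group, so they are given as sizes only. The number of genes called moved from 499 to 251 with no filter and to 1031 with the replicate block over the 2 DMR-deleted pairs, and was 372 with the block over all 13 libraries; leaving out 1 library gave 119 to 421. The block kept the calls of Pramel6, Pramel7 and Pramel3 over the 2 pairs and over 13 libraries; over 3 pairs, where the libraries also differ, that of Pramel3 was lost. In the passage contrast, 0 genes became 20 with no filter and 0 to 8 when 1 library was left out, 8 of them without TSa2i-14 p47. Gm13128 turned from 0.14 to -0.061 with quantile normalization and to -0.032 without TSa2i-C57 p58 (-0.032 to 0.341 without 1 library), Pramel6 ranged from -0.727 to 0.085 and Pramel7 from -0.642 to 0.333 without 1 library. In the wild-type description, Pramel6 lay between -3.17 and -2.15 and Pramel7 between -3.28 and -2.23 over 16 alternatives. The causes were not tested. Values under 3 fragments bound folds only from below.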
